A study of Felis catus with 23 samples.

Results

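The miR-29 family was measured in cat serum as 3 miRNA names, hsa-miR-29a-3p, hsa-miR-29b-3p and hsa-miR-29c-3p, of the 2026 names on the array. The prefix hsa marks a human name and is dropped from here on. The members were chosen by name, through the probes that the scanner files label with these names. Each had 2 probes of 15 spots, and the values given are those of the brighter probe, A_25_P00012013 for miR-29a-3p, A_25_P00010053 for miR-29b-3p and A_25_P00012274 for miR-29c-3p. All 3 names passed the detection filter described next, which left 543 names for testing.

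The serum came from 11 cats with hypertrophic cardiomyopathy (HCM), in which the heart muscle thickens, and from 12 healthy cats, with 1 array per cat. The labels give no age, breed, sex or treatment for either group. In both groups the clotting time was 20 min, followed by centrifugation (5 min, 600 g), and RNA was labelled with Cy3 and hybridised to an Agilent array for human miRNAs. The arrays sat on 3 slides, with 3 HCM and 4 healthy arrays on slide 1 and 4 of each on slides 2 and 3. All HCM arrays were in row 1 of a slide and all healthy arrays in row 2, so row and group cannot be told apart.

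The mature miR-29 molecules share their seed, the stretch near the 5′ end that chooses target mRNAs, and differ little elsewhere. Whether probes of one member also bound another was not tested. In mammals the family is known to repress mRNAs of collagens, elastin and fibrillin and is called antifibrotic for this. In the heart it is found mainly in fibroblasts, and in human HCM circulating miR-29a has been studied as a marker of fibrosis. Each member is made from the 3′ arm of a hairpin whose 5p arm is usually scarce. In serum, release from one tissue or another and the number of cells that release cannot be told apart.

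Values are log2 of the scaled signal. Detection on an array required that 50% or more of a probe's spots were well above background, and values below 2.45 were set to this floor. The 75th percentile intensity of an array, over 508 scaling probes, lay between 151.7 and 503 in HCM and between 90.5 and 699 in healthy serum. Healthy replicates 20, 22 and 25 were the dimmest arrays, at 90.5, 104 and 101. An array detected between 322 and 608 names, and no spot was saturated (0 over all arrays).

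The family was present in every serum through miR-29a-3p and miR-29c-3p, which were detected on 23 of 23 arrays, while miR-29b-3p was detected on 14. miR-29a-3p in HCM serum read 5.43 at its lowest, 7.24 at the median and 10.42 at its highest. In healthy serum the corresponding values of miR-29a-3p were 6.12, 8.17 and 9.16. HCM replicate 10 gave the highest miR-29a-3p of all cats and HCM replicate 2 the lowest, so the healthy range lay inside the HCM range. From the lowest to the highest cat, miR-29a-3p spanned 31.7-fold.

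miR-29c-3p followed the same order at both ends. It ran from 5.88 over a median of 7.15 to 9.65 in HCM and from 6.03 over 7.90 to 8.82 in healthy serum. HCM replicate 10, healthy replicate 26 and healthy replicate 22 were the 3 highest arrays for both names, and HCM replicates 2 and 7 and healthy replicates 14 and 18 the 4 lowest.

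miR-29b-3p was the least measurable member. It was at the floor on 6 of 11 HCM and 3 of 12 healthy arrays, and detected on 5 HCM and 9 healthy arrays. Above the floor, the HCM values were 4.49, 3.58, 3.78, 7.42 and 4.88 in replicates 1, 6, 8, 10 and 12. The healthy values above the floor ran from 3.23 in replicate 21 to 7.57 in replicate 16. Healthy replicate 16, HCM replicate 10 and healthy replicate 22, at 6.93, stood above all other cats for this member, and the groups overlapped over nearly the whole range.

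**Figure D1:**
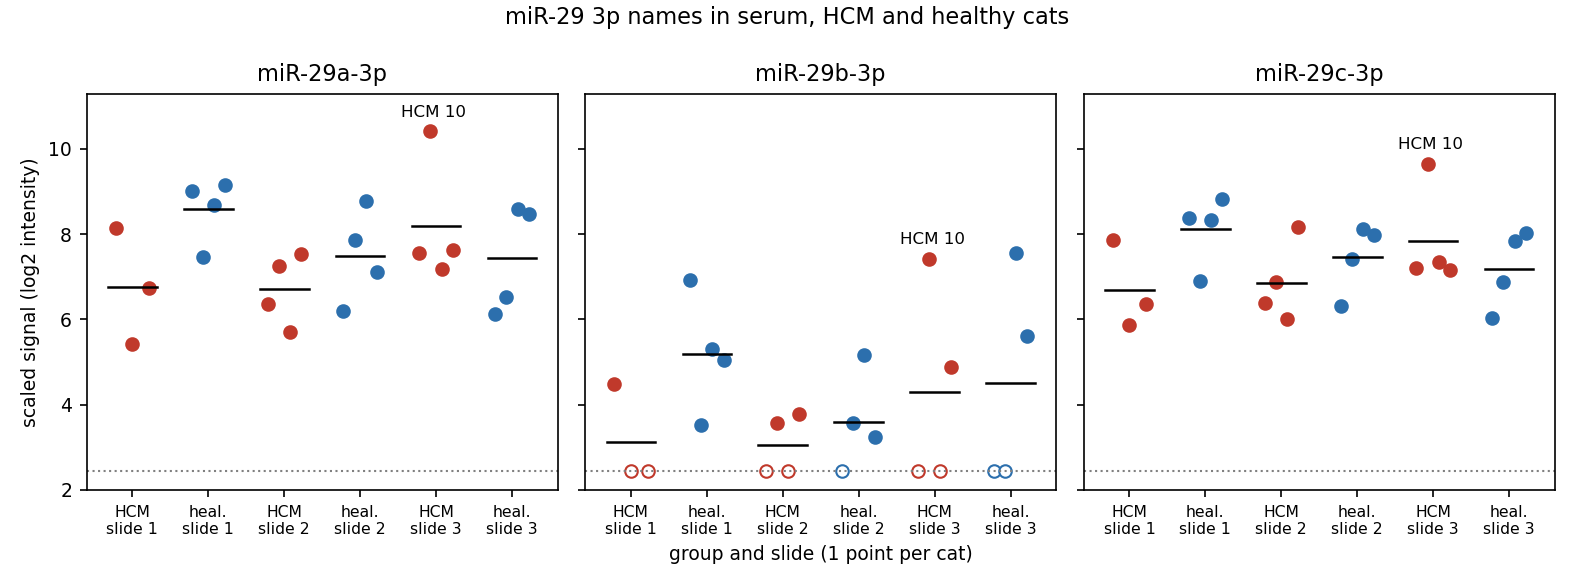
Scaled signal (log2 intensity) of the 3 names, 1 point per cat, by group and slide. Lines are means, open points were not detected and the dotted line is the floor of 2.45. HCM replicate 10 stands at 10.42, 7.42 and 9.65 in the 3 panels, and the groups overlap on each slide.

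The spread between arrays was far wider than the spread between spots of an array. With 1 array per cat, differences between cats and between preparations of the arrays cannot be told apart. Over the arrays that detected the name, the median coefficient of variation between spots was 4.24% for miR-29a-3p, 10.66% for miR-29b-3p and 4.66% for miR-29c-3p. The SD over the 23 arrays was 1.23, 1.70 and 0.99 on the log2 scale, against a median of 0.54 over the tested names. By that SD miR-29b-3p ranked 3 of 543, although the floor truncates its low values, miR-29a-3p 16 and miR-29c-3p 46.

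The second probe of each name gave nearly the same pattern over cats where it had signal. For miR-29c-3p the 2 probes differed by 0.04 ± 0.04 (SD, n = 23) on the log2 scale. For miR-29a-3p the brighter probe lay 1.56 ± 0.17 above the other (SD, n = 23), with a Pearson r of 0.992 over arrays as a description. The second probe of miR-29b-3p was above the floor on 6 arrays only, where it lay 2.45 ± 0.19 below the first (SD, n = 6).

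The other arms of the hairpins were hardly seen. miR-29a-5p, miR-29b-1-5p and miR-29b-2-5p were detected on 0 arrays by any of their 4 probes each. miR-29c-5p was detected on 2 arrays, at 3.95 in HCM replicate 10 and 2.54 in healthy replicate 26, the 2 highest arrays for miR-29c-3p.

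HCM was compared with healthy serum to ask whether the circulating family differs in the disease, the question that the series title states. The mean of each member was lower in HCM, but the differences were smaller than the spread between arrays would need to pass the test. By limma, with Benjamini-Hochberg adjustment over all 543 tested names, 0 of the 3 members passed an adjusted p of 0.05. The same threshold called 0 names in all, 0% of those tested, and 36 (6.63%) had an unadjusted p under 0.05, by limma; none of the members was among them. A negative difference was itself common, with 361 of 543 names (66.5%) lower in HCM and a median difference of -0.10 over all names. The median over the 3 members was -0.56.

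miR-29a-3p read 7.27 ± 1.34 in HCM (SD, n = 11) and 7.83 ± 1.12 in healthy serum (SD, n = 12). The difference of -0.56 had a limma SE of 0.48 and a 95% interval from -1.54 to 0.41, which as a ratio of HCM to healthy runs from 0.343 to 1.33 (limma p 0.246, adjusted p 0.802). On 10 of 11 HCM arrays miR-29a-3p was below the healthy median, a count reached by 25 of the 543 names (4.6%). The exception was HCM replicate 10. Without this cat the difference was -0.88 (limma adjusted p 0.622).

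miR-29b-3p read 3.53 ± 1.58 in HCM (SD, n = 11) and 4.44 ± 1.76 in healthy serum (SD, n = 12). This difference of -0.91 was exceeded in size by 3 of the tested names, and its SE of 0.64 was among the largest of the fit, rank 5 of 543. The 95% interval ran from -2.24 to 0.41 (limma p 0.169, adjusted p 0.802). Below the healthy median lay 8 of 11 HCM arrays, as for 30.8% of names at this count or more. With 6 HCM and 3 healthy arrays at the floor, the size of this difference depends on where the floor is set. It was -0.67 with the floor at the 20th percentile of detected signals and -1.03 with it at the 1st.

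miR-29c-3p read 7.17 ± 1.10 in HCM (SD, n = 11) and 7.59 ± 0.88 in healthy serum (SD, n = 12). The difference was -0.42 with an SE of 0.39 and a 95% interval from -1.21 to 0.38 (limma p 0.288, adjusted p 0.802). On 9 of 11 HCM arrays it was below the healthy median, a count or more that 14.7% of names reached. Without HCM replicate 10 the difference was -0.67 (limma adjusted p 0.682).

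The differences were smaller without the dimmest arrays. Healthy replicates 20, 22 and 25 were among the 5 highest for miR-29a-3p, at 8.79, 9.02 and 8.68. Without them, a setting chosen after seeing the data, the differences were -0.23, -0.46 and -0.19 for miR-29a-3p, miR-29b-3p and miR-29c-3p. Without scaling between arrays they were -0.14, -0.23 and 0.0019. With the log2 75th percentile intensity as a covariate they were -0.46, -0.68 and -0.33 (limma adjusted p 0.830, 0.830 and 0.851).

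**Figure D2:**
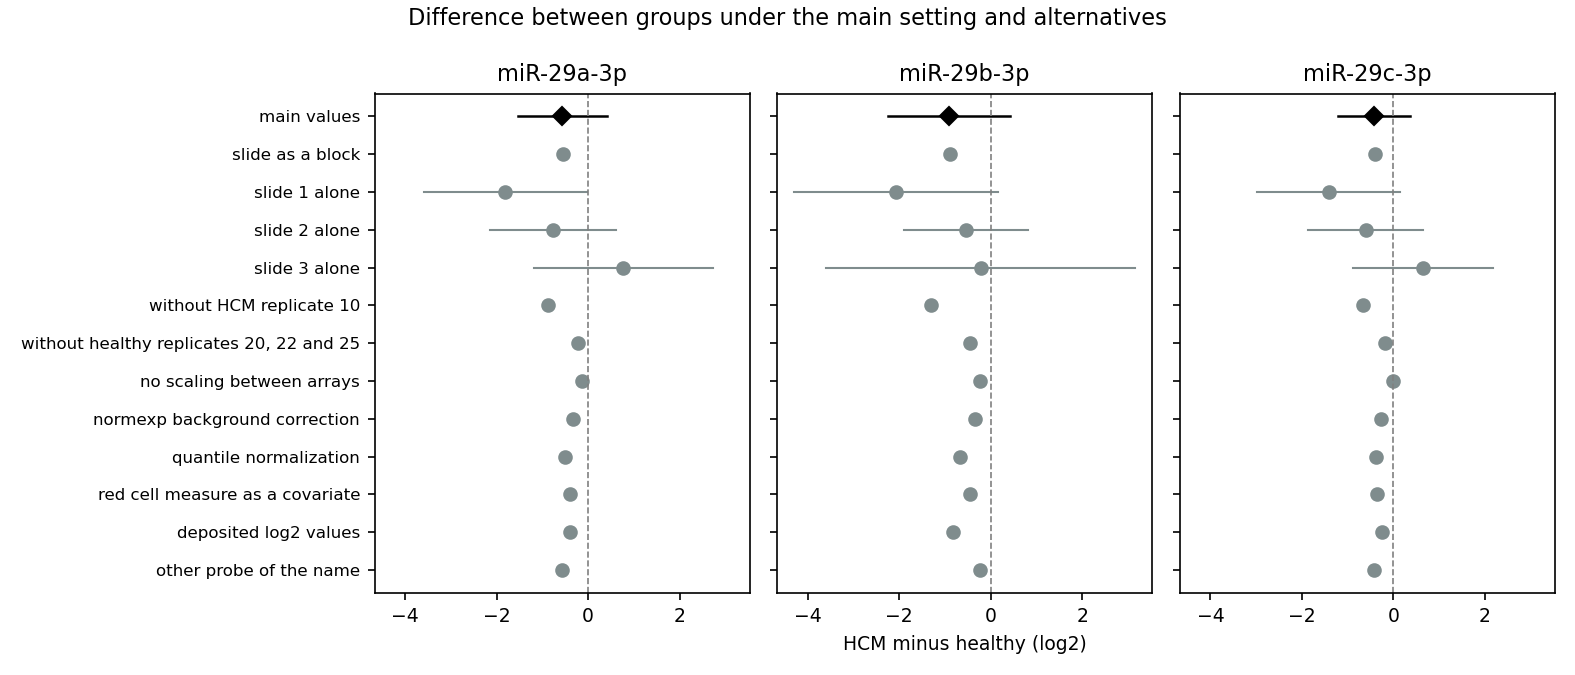
Difference between group means (HCM minus healthy, log2) of each name, in the main values (diamond, with the 95% interval of the limma fit) and under other settings (circles, with the 95% interval for single slides). Values on slide 3 lie at 0.77, -0.22 and 0.65, those on slide 1 at -1.81, -2.07 and -1.41.

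The sign of the difference between groups turned over slides for miR-29a-3p and miR-29c-3p, while miR-29b-3p was lower in HCM on each slide. Of all tested names, 61.1% were lower in HCM on slide 1, 62.2% on slide 2 and 67% on slide 3. An unadjusted limma p under 0.05 was found for 2.03%, 6.81% and 3.68% of names in fits of the single slides, and an adjusted one for 0%, 0.368% and 0%. No member passed the adjusted threshold on a slide.

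On slide 1, miR-29a-3p was at 8.15, 5.43 and 6.73 in HCM replicates 1, 2 and 3. The healthy replicates 22, 23, 25 and 26 on that slide read 9.02, 7.45, 8.68 and 9.16. Only HCM replicate 1 reached into the healthy values, and the difference was -1.81 (exact 2-sided permutation p 0.0857, with 0.0286 as the smallest that 3 against 4 allow). The limma fit of slide 1 alone gave miR-29a-3p an unadjusted p of 0.0471 and an adjusted p of 1.

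On slide 3 the sign of miR-29a-3p was the other. HCM replicates 9, 10, 11 and 12 read 7.57, 10.42, 7.19 and 7.63, and healthy replicates 14, 15, 16 and 17 read 6.12, 6.54, 8.58 and 8.48. The difference was 0.77 (exact 2-sided permutation p 0.457), and without HCM replicate 10 it was 0.03. All 4 HCM values lay above the healthy replicates 14 and 15, and 3 of them lay below the healthy replicates 16 and 17.

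On slide 2, miR-29a-3p read 6.36, 7.24, 5.71 and 7.54 in HCM replicates 5, 6, 7 and 8 and 6.20, 7.86, 8.79 and 7.11 in healthy replicates 18, 19, 20 and 21. The groups overlapped through healthy replicates 18 and 21. The differences lay between those of the other slides for each member, with -0.78 for miR-29a-3p, -0.54 for miR-29b-3p and -0.61 for miR-29c-3p (exact 2-sided permutation p 0.286, 0.629 and 0.400). miR-29c-3p on slide 1 read 7.86, 5.88 and 6.36 in HCM replicates 1, 2 and 3 and 8.38, 6.91, 8.34 and 8.82 in healthy replicates 22, 23, 25 and 26. On slide 3 it read 7.20, 9.65, 7.35 and 7.15 in HCM replicates 9 to 12 and 6.03, 6.87, 7.83 and 8.02 in healthy replicates 14 to 17. As for miR-29a-3p, a single HCM array reached into the healthy values on slide 1, and HCM replicate 10 stood above all others on slide 3. The differences of miR-29c-3p were -1.41 on slide 1 and 0.65 on slide 3, the latter 0.05 without HCM replicate 10.

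For miR-29b-3p these slides gave -2.07 and -0.22, the latter 0.30 in the authors' deposited table and -1.26 without HCM replicate 10. The pattern of a negative difference on slide 1 and a positive one on slide 3 was shown by 21.2% of the tested names.

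The group by slide interaction tested this variation directly and did not pass for any member. The limma F test gave unadjusted p values of 0.0842, 0.496 and 0.102 for miR-29a-3p, miR-29b-3p and miR-29c-3p, each with an adjusted p of 0.998. It called 0 of 543 names (0%), and 13 (2.39%) had an unadjusted p under 0.05. With slide as a block the differences were -0.55, -0.89 and -0.41 (limma adjusted p 0.783, 0.783 and 0.799).

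The family varied together over cats. Between miR-29a-3p and miR-29c-3p the Pearson r was 0.940 and Spearman rho 0.910 over 23 arrays (permutation p 1e-05 each, the smallest the permutations give, and adjusted p 1e-05 over the 3 pairs). Without HCM replicates 10 and 2, the arrays farthest from the median, r was 0.908. Within HCM, r was 0.955 and within healthy serum 0.914 (permutation p 4e-05 and 0.00011). On slides 1, 2 and 3, r was 0.977, 0.847 and 0.974 (exact permutation p 0.000198, 0.00843 and 0.000298).

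miR-29b-3p followed miR-29a-3p with r 0.874 and rho 0.893 (permutation p 1e-05, adjusted p 1e-05). Within groups r was 0.882 in HCM and 0.867 in healthy serum, and on slides 1, 2 and 3 it was 0.887, 0.956 and 0.861 (exact permutation p 0.00754, 0.000893 and 0.00238 on the slides). Without HCM replicates 10 and 2 r was 0.849. Over the 14 arrays with miR-29b-3p above the floor, r was 0.820 (permutation p 0.00018).

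The remaining pair, miR-29b-3p and miR-29c-3p, was the loosest, with r 0.791 and rho 0.815 (permutation p 1e-05, adjusted p 1e-05). Without healthy replicate 16 and HCM replicate 10, the arrays farthest from the median, r was 0.788. It was 0.848 in HCM and 0.731 in healthy serum, and 0.886, 0.804 and 0.775 on slides 1, 2 and 3 (exact permutation p 0.00913, 0.0119 and 0.0101 on the slides). Over the 14 arrays above the floor r was 0.601 (permutation p 0.0226). These pairs share the scaling of each array and may share probe signal, and without scaling the 3 values of r were 0.789 for miR-29a-3p with miR-29b-3p, 0.942 for miR-29a-3p with miR-29c-3p and 0.671 for the remaining pair.

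**Figure D3:**
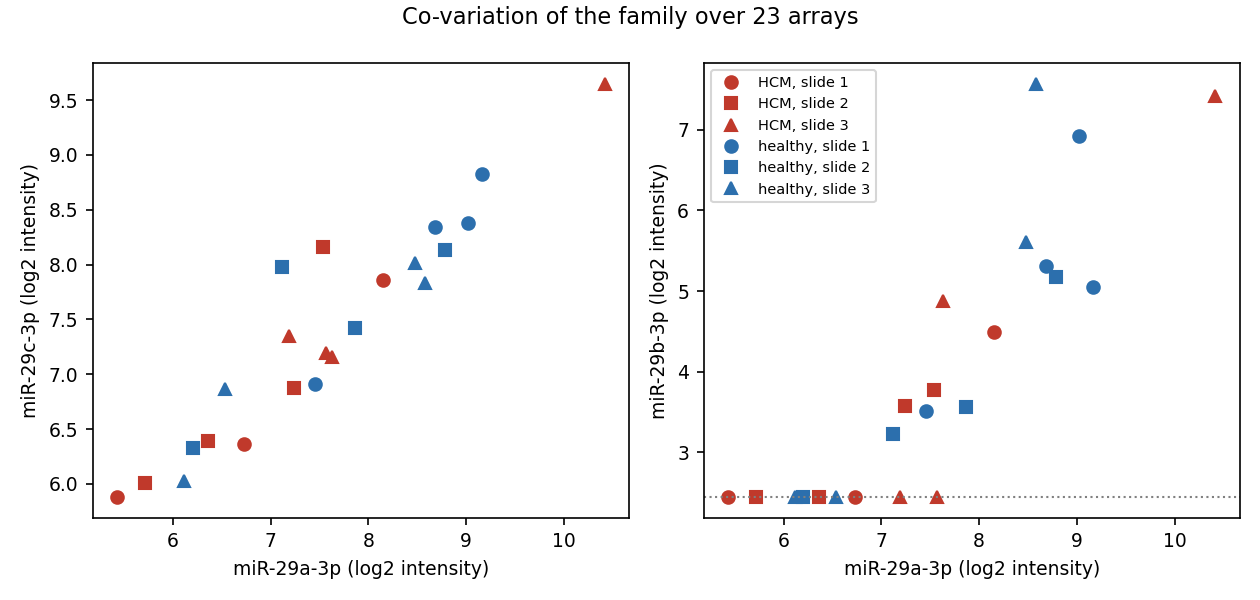
miR-29c-3p (left) and miR-29b-3p (right) against miR-29a-3p, in log2 intensity, 1 point per cat, coloured by group and shaped by slide. Pearson r is 0.940 on the left and 0.874 on the right, and the dotted line is the floor, where 9 arrays lie.

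Differences between members within an array were not shown to separate the groups. The difference of miR-29a-3p and miR-29c-3p, which were above the floor on every array, does not depend on scaling between arrays. miR-29a-3p minus miR-29c-3p was 0.10 ± 0.44 in HCM (SD, n = 11) and 0.25 ± 0.48 in healthy serum (SD, n = 12), a difference of -0.15 (2-sided permutation p 0.448, adjusted p 0.448 over 3 pairs). It ran from -0.86 in healthy replicate 21 to 0.77 in HCM replicate 10. miR-29a-3p minus miR-29b-3p differed by 0.35 between groups and miR-29c-3p minus miR-29b-3p by 0.49 (permutation p 0.362 and 0.300, adjusted p 0.448 each). Both depend on scaling on the 9 arrays where miR-29b-3p was set to the floor.

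Among the other 542 tested names, the pattern over cats most like that of miR-29a-3p by Spearman rho over 23 arrays was that of miR-222-3p, a miRNA abundant in the vessel wall, at 0.917. miR-29c-3p came next at rank 2 and miR-29b-3p at rank 3. They were followed by miR-142-5p, known from blood cells, at rho 0.882, by miR-24-3p at 0.866, by miR-342-3p, found in leukocytes, at 0.860 and by miR-505-3p at 0.856. miR-222-3p and these 4 names were detected on 20, 18, 20, 18 and 11 of 23 arrays, in this order. The values of miR-222-3p lay between the floor of 2.45 and 4.99. The order depended on the measure. By Pearson r miR-29c-3p came first at 0.940 and miR-222-3p second at 0.912. In the authors' deposited table miR-29b-3p came first by Spearman rho at 0.935 and miR-222-3p was at rank 5 with 0.867. The median rho over all names was 0.04. The 3 names at the other end were miR-4530 at -0.77, miR-4497 at -0.72 and miR-4459 at -0.59. By limma 0 of these 8 names passed the comparison of HCM with healthy serum, and 1, miR-4497, had an unadjusted p under 0.05 (0.0487). miR-222-3p differed by -0.45 (limma SE 0.29, adjusted p 0.802), while miR-24-3p differed by 0.29 (limma SE 0.75, adjusted p 0.933), with a sign opposite to that of the family.

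**Figure D4:**
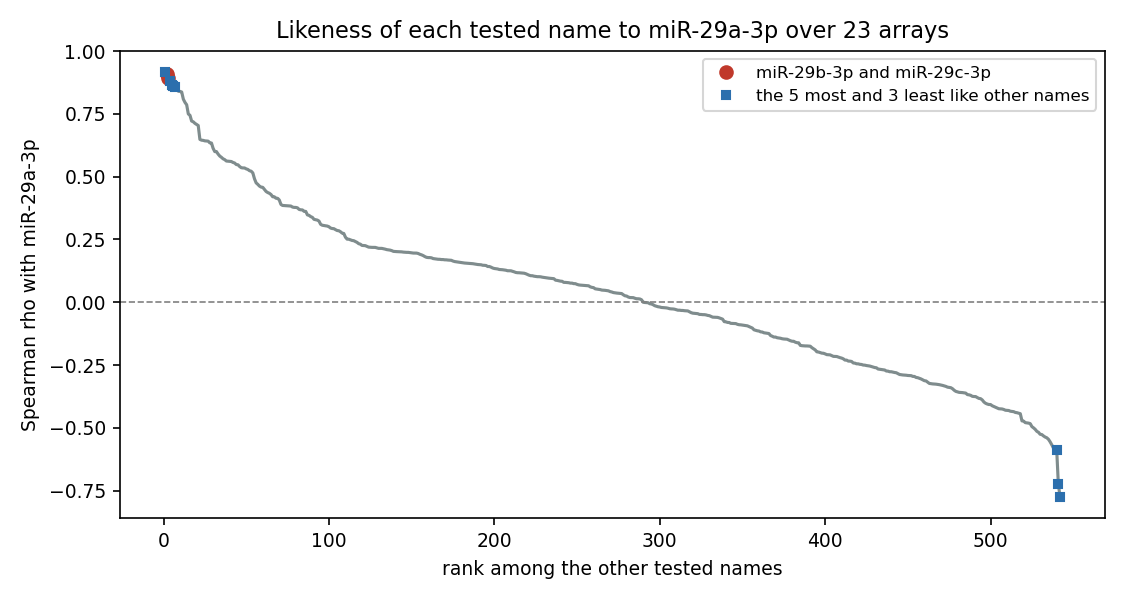
Spearman rho of each of the 542 other tested names with miR-29a-3p over 23 arrays, ordered from most to least like. miR-29c-3p and miR-29b-3p (red) hold ranks 2 and 3 by this measure, behind miR-222-3p at 0.917, and the least like name is miR-4530 at -0.77.

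Other signals in the sera moved with some of these values. The red cell measure, miR-451a minus miR-23a-3p on the log2 scale, had a Pearson r of 0.533 with miR-29b-3p (permutation p 0.00822, adjusted p 0.0493 over 6 relations) but a Spearman rho of 0.334 (permutation p 0.120). Without the 2 arrays farthest from the median of that measure r was 0.148, so the Pearson r over all arrays rests on those arrays. Pearson r was 0.718 in healthy and 0.134 in HCM serum, and 0.153, 0.293 and 0.827 on slides 1, 2 and 3 (exact permutation p 0.750, 0.492 and 0.00298). Spearman rho on these slides was -0.090, 0.244 and 0.875 (exact permutation p 0.857, 0.564 and 0.00714, the last with adjusted p 0.0428). The measure was -1.45 ± 1.32 in HCM (SD, n = 11) and -0.58 ± 1.75 in healthy serum (SD, n = 12), and with it as a covariate the difference of miR-29b-3p was -0.45 (limma adjusted p 0.899).

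For miR-29a-3p and miR-29c-3p the red cell measure gave r 0.281 and 0.147 over 23 arrays, and the log2 75th percentile intensity gave -0.206, -0.303 and -0.203 for the 3 members in order. Over all arrays 0 of these 5 relations passed (permutation p of r between 0.160 and 0.504). The red cell measure is a difference of 2 names. Alone, miR-451a had a Spearman rho of 0.613 with miR-29a-3p and miR-23a-3p 0.718, over 23 arrays. On slide 3 the Spearman rho of the red cell measure was 0.810 with miR-29a-3p and 0.810 with miR-29c-3p (exact permutation p 0.0218 each, adjusted p 0.0436), while Pearson r was 0.592 and 0.496 (exact permutation p 0.132 and 0.208). The brightness relation had opposite signs in the groups, a difference that was not tested, with r of 0.484 for miR-29a-3p in HCM and -0.541 in healthy serum (permutation p 0.132 and 0.0710). For miR-29a-3p on slides 1, 2 and 3 it was -0.034, -0.706 and -0.198 (exact permutation p 0.942, 0.0477 and 0.642, adjusted p 0.942, 0.0954 and 0.770).

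HCM replicate 10, the serum with the highest miR-29a-3p, also stood apart in muscle and liver names. miR-133b, a muscle miRNA, read 9.62 there and at most 5.25 in any other cat. The summed scaled intensity of 7 muscle names was 1002 in that serum, between 38.1 and 83.3 in the other HCM sera and between 38.1 and 69.3 in healthy sera. Of these names 1 was tested, and miR-1 and miR-208a were detected on 0 arrays. Of 4 liver names 1 was tested, and miR-122-3p and miR-194-5p were detected on 0 arrays. The liver sum was 259.8 in that serum, against 38.7 at most in the other HCM sera and 69.0 in healthy sera.

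The sums of 8 red cell, 7 platelet and 9 leukocyte names overlapped between groups. They ran from 2101 to 13264, from 70.5 to 434 and from 106.3 to 382 in HCM. In healthy serum the ranges were 1771 to 17827, 77.5 to 480 and 116.6 to 448. Of these lists 5, 4 and 6 names were tested and 0 passed. Lower in HCM were 1, 2 and 6 of them, with median differences of 0.07, -0.05 and -0.27. All 6 tested leukocyte names were lower in HCM, as were the miR-29 names, against 66.5% of all tested names. miR-144-5p, miR-191-5p and miR-199a-3p were detected on 0 arrays.

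Several marker sums also followed miR-29a-3p over cats, a relation examined after the sums had been seen, in 15 pairs of 5 lists with 3 members. The sums are not separate from the names most like miR-29a-3p given above. The platelet list holds miR-24-3p and the leukocyte list miR-142-5p and miR-342-3p, with Spearman rho 0.866, 0.882 and 0.860 with miR-29a-3p. miR-223-3p is in both lists and had a lower rho than each of these names. Names of a list thus differed in how closely they followed miR-29a-3p. A relation with a sum does not show that every name of the list, or its cell type, followed miR-29a-3p. With the log2 platelet sum, miR-29a-3p had r 0.662 and rho 0.736 over 23 arrays (permutation p 0.00059 and 0.00016, adjusted p 0.00126 and 0.00048). Without the 2 farthest arrays r was 0.563. Within groups r was 0.814 in HCM and 0.514 in healthy serum (permutation p 0.00034 and 0.0870), and on slides 1, 2 and 3 it was 0.830, 0.422 and 0.778 (exact permutation p 0.0220, 0.299 and 0.0164).

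With the leukocyte sum r was 0.530 and rho 0.439 (permutation p 0.00964 and 0.0367, adjusted p 0.0145 and 0.0475). Without the 2 farthest arrays r was 0.449 and rho 0.339 (permutation p 0.0408 and 0.134, adjusted p 0.0612 and 0.18). Neither adjusted p was then under 0.05, with 21 arrays left. It was 0.705 in HCM and 0.228 in healthy serum, and 0.7103, 0.401 and 0.670 on slides 1, 2 and 3 (exact permutation p 0.0696, 0.327 and 0.0632).

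With the muscle and liver sums, in which most names were at the floor, r was 0.609 and 0.692 and rho 0.692 and 0.744 (permutation p of r 0.00056 and 0.00014, adjusted p 0.00126 and 0.000675; permutation p of rho 0.00042 and 0.0001). The 1 tested name of each list, detected on 10 arrays, had rho 0.634 (miR-133b) and 0.744 (miR-122-5p), the latter equal to that of the liver sum. Without the 2 farthest arrays r of the sums was 0.582 and 0.548. Within groups r was 0.817 and 0.849 in HCM and 0.596 and 0.538 in healthy serum. On slides 1, 2 and 3 it was 0.551, 0.475 and 0.827 for muscle (exact permutation p 0.154, 0.256 and 0.0107) and 0.409, 0.686 and 0.871 for liver (exact permutation p 0.362, 0.0179 and 0.00417). The red cell sum gave r 0.216 (permutation p 0.32). As intensities are added, the brightest names weigh most in a sum. Alone, the tested red cell names had Spearman rho 0.613 (miR-451a), 0.458 (miR-144-3p), 0.384 (miR-92a-3p), 0.338 (miR-25-3p) and 0.042 (miR-486-5p) with miR-29a-3p. These sums share the scaling of each array with miR-29a-3p. The part of these cell types in the family's values was not tested.

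The miR-29 names belong to a list of 30 miRNAs known for a part in fibrosis or its cell types. Of these, 10 were detected on 0 arrays and 13 were tested, 9 with a lower and 4 with a higher mean in HCM, where 66.5% of all tested names were lower. By limma 0 of the 13 passed and 0 had an unadjusted p under 0.05, against 6.63% of all tested names. The median difference of the 13 was -0.37, and of the 10 besides miR-29 it was -0.17, 6 of them negative, against -0.10 over all tested names.

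Values of the other list members overlapped in both signs. miR-21-5p, known to promote fibroblast survival in the mouse heart, differed by -0.52 (limma SE 0.40), with -1.47 on slide 1 and 0.47 on slide 3, the signs that miR-29a-3p had on these slides. miR-26a-5p and miR-223-3p both differed by -0.56, on each slide in the same direction. They were detected on 9 and 21 arrays, and without scaling they differed by -0.04 and -0.15. The miR-30 members, from a family that represses connective tissue growth factor, differed by 0.39 for miR-30a-5p, -0.19 for miR-30d-5p and -0.37 for miR-30e-5p. miR-30d-5p and miR-30e-5p were at 0.23 and 0.05 without scaling. The muscle miRNA miR-133b, which is highest in HCM replicate 10, differed by 0.55, miR-122-5p from liver by 0.02 and miR-155-5p by -0.15. These names were detected on 10, 10 and 6 arrays.

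**Figure D5:**
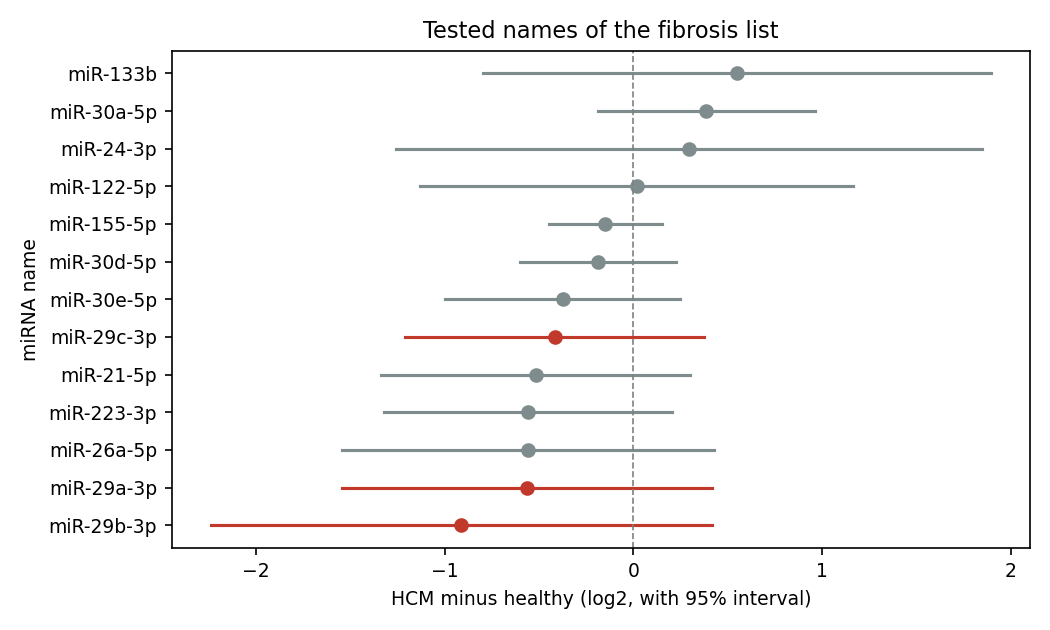
Difference between group means (HCM minus healthy, log2) of the 13 tested names of the fibrosis list, with 95% intervals from the limma fit. The miR-29 names (red) lie at -0.91, -0.56 and -0.42, and all 13 intervals include 0.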

How the data were processed

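The 3 members and the lists were chosen with earlier results of these data known. The deposited scanner files give a linear intensity for each spot, made with Agilent Feature Extraction 10.7.3.1 per the file headers, background-subtracted in the processed signal, with no normalization between arrays. The authors' deposited table holds log2 values for 1758 probes; against the processed signals above an intensity of 8 its correlation per array was 0.987 to 0.9998, so scale and direction were settled and the normalization stays unknown. Its column medians over miRNA probes lay between 2.98 and 3.315.

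Without control and outlier spots, 12 to 15 processed signals of each member probe were averaged. Arrays were scaled to their 75th percentile over 508 probes detected on all arrays, floored at 5.45 (the 5th percentile of detected signals; 2.45 in log2) and log2 transformed. Each name took its probe with the highest mean, and was tested if detected on at least 6 arrays. limma 3.58.1 in R 4.3.3 (lmFit, eBayes, 2-sided, no covariates) compared the groups, with Benjamini-Hochberg adjustment over 543 names. The fit and the permutation tests (100000 resamples, exact within slides) were tested on simulated data. The scanner files here have no mean signal column, so normexp (offset 50) used the median signal. Named were the 3 members, their 5p arms, the 5 most and 3 least like names by Spearman rho with miR-29a-3p, and the tested fibrosis list. Names of the marker lists were given as well. Replicates are different cats, and the number of arrays limits the precision. Other steps ran in Python 3.11.15 (scipy 1.17.1, pandas 2.3.3, numpy 2.4.6; figures with matplotlib 3.10.9). No probe or miRNA sequence and no genome position was used here.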

Additional observations from a re-analysis of the deposited data

Results flagged for a closer look

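HCM replicate 10 stood far from the other HCM arrays of slide 3 for both members that were detected in every serum. For miR-29a-3p it read 10.42, and its gap to the next HCM array of that slide was 0.863 of their whole range, above Dixon's 95% critical value for 4 samples. For miR-29c-3p it read 9.65, with a gap of 0.923 of the range. For miR-29b-3p, at 7.42, the gap was 0.511 of the range. Of 15 sets of 4 arrays examined (1 name, group and slide each), 2 were past the critical value, both through this serum. Chance gives about 1 in 20 for independent sets. The 2 names varied together (r 0.974 on slide 3), and some miR-29b-3p sets hold tied floor values. The count therefore cannot be set against that rate.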

How the results depend on the processing

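The number of names called in HCM against healthy serum was 0 in the main values and in 15 of 18 alternatives besides those that leave out 1 array. It was 1 with the floor at the 1st percentile, 4 in the deposited log2 values and 1 in the total gene signal, and in none of these was a miR-29 name called. Leaving out 1 array at a time called 0 names in each of 23 fits (lowest adjusted p 0.0677). The members passed under none of the alternatives run, with limma adjusted p of at least 0.395, and the permutation test of the difference in means gave unadjusted p of 0.283, 0.205 and 0.321. The difference of miR-29a-3p was 0.77 on slide 3 alone, and between -1.81 and -0.14 otherwise. That of miR-29c-3p was 0.65 on slide 3 alone and 0.0019 without scaling. miR-29b-3p was between -2.07 on slide 1 and -0.22 on slide 3, where the deposited values gave 0.30, with -0.35 after normexp and -0.24 by its second probe. Leaving out 1 array gave -0.88 to -0.38 for miR-29a-3p, -1.30 to -0.63 for miR-29b-3p and -0.67 to -0.29 for miR-29c-3p; the largest in size came without HCM replicate 10. The interaction with slide called 1 name after quantile normalization, not a member, and 0 in the other alternatives. The within-array differences kept their direction and side of the threshold in the 3 alternatives run. The correlations were positive and past the threshold in all alternatives run, the lowest r being 0.5985 (miR-29b-3p with miR-29c-3p, without scaling and without the 2 farthest arrays). The cause of these changes was not tested. No paired analysis was possible because the groups share no replicate numbers. miR-29b-3p was limited by its signal over background, with 9 of 23 arrays at the floor.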

Other observations

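Detection of miR-29b-3p followed the level of miR-29a-3p across cats. The 9 arrays without miR-29b-3p read at most 7.57 for miR-29a-3p, in HCM replicate 9, and the 14 arrays with it read at least 7.11, in healthy replicate 21. Healthy replicate 16 read 7.57 for miR-29b-3p, the highest of all cats, with 8.58 for miR-29a-3p and a red cell measure of 3.22, also the highest of all cats.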
